A study of Mus musculus with 12 samples.

Results

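Membrane repair genes were compared between the tibialis anterior muscles of WT and mdx/mTR mice: the ferlins Dysf and Myof, the ubiquitin ligase Trim72, the caveolar coat gene Cav3, the membrane-bending gene Bin1, and the annexins Anxa1, Anxa2, Anxa4, Anxa5 and Anxa6. These 10 genes were taken by symbol from a count table of 24421 entries, and all 10 were among the 13937 genes with enough counts to test. The WT group held 6 samples of C57Bl/6 mice and the mdx/mTR group 6 samples, all from males aged 4 months, with 1 library per sample. The mdx allele disrupts Dmd, the dystrophin gene, and mTR is a name of the mouse telomerase RNA gene, so that effects of the 2 loci cannot be told apart in this design. Neither the telomerase generation nor the breeding of the WT mice is given in the sources used here. The labels name separate samples without saying that each came from a different animal, so the p-values measure the spread between these samples, which may be technical.

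A tear in the membrane of a muscle fibre lets calcium in, and calcium starts the repair. Dysferlin, a calcium-binding membrane protein, helps vesicles fuse at the wound, Trim72 gathers vesicles there, and caveolin 3 holds dysferlin at the surface. Annexins bind acidic membrane lipids when calcium rises and form a cap over the gap, while Bin1 shapes the T-tubules, the membrane folds that carry the action potential into the fibre. Loss of dysferlin or caveolin 3 causes muscle disease in people, and fibres without dystrophin tear easily.

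The WT libraries held 36903560 to 40981012 counts, the mdx/mTR libraries 35136327 to 60330410. Levels are given as CPM, counts scaled to library size, after adjustment by the trimmed mean of M-values (TMM), which assumes that most genes do not differ. Dmd, the check of the labels, stood at 228 to 244 CPM in WT and 35.2 to 56.4 CPM in mdx/mTR. The 10 fibre markers, which check the muscle label, were abundant in every library and summed to 192554 to 225938 CPM in WT and 151978 to 207750 CPM in mdx/mTR. Of 12 lists of cell type markers, macrophage genes (10 of 10 tested genes higher), genes of satellite cells and myoblasts (7 of 8 higher), and fibroblast genes (6 of 8 higher) were mostly above WT, while endothelial (5 of 7 lower) and Schwann genes (5 of 6 lower) were below WT. Mural cell genes had 1 of 5 higher and 2 lower, tendon genes 3 of 4 higher, adipocyte genes 1 of 4 lower, neutrophil genes 2 of 3 higher, at a sum of at most 18.6 CPM in any library, lymphocyte genes 1 of 2 higher, and the only red cell gene tested did not pass. In bulk muscle, fewer cells of a type and less RNA per cell cannot be told apart.

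Of the 10 genes, 8 were higher in mdx/mTR and 0 were lower (edgeR quasi-likelihood test, Benjamini-Hochberg adjusted p below 0.05 over all genes tested). Over all 13937 genes, 48.3% were called, 25.0% higher and 23.4% lower. For 7 of the 10, all 6 mdx/mTR libraries lay above all 6 WT libraries, which held for 12.6% of all genes, while 25.2% had no overlap in either direction. The median log2 fold change was 0.54 over the 10 genes and 0.01 over all genes. All 5 annexins were higher, and so were Myof, Cav3 and Trim72, whereas Dysf and Bin1 did not pass. Anxa1, Anxa2 and Anxa4 were called with at least a 2-fold rise, as were 7.24% of all genes.

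**Figure D1:**
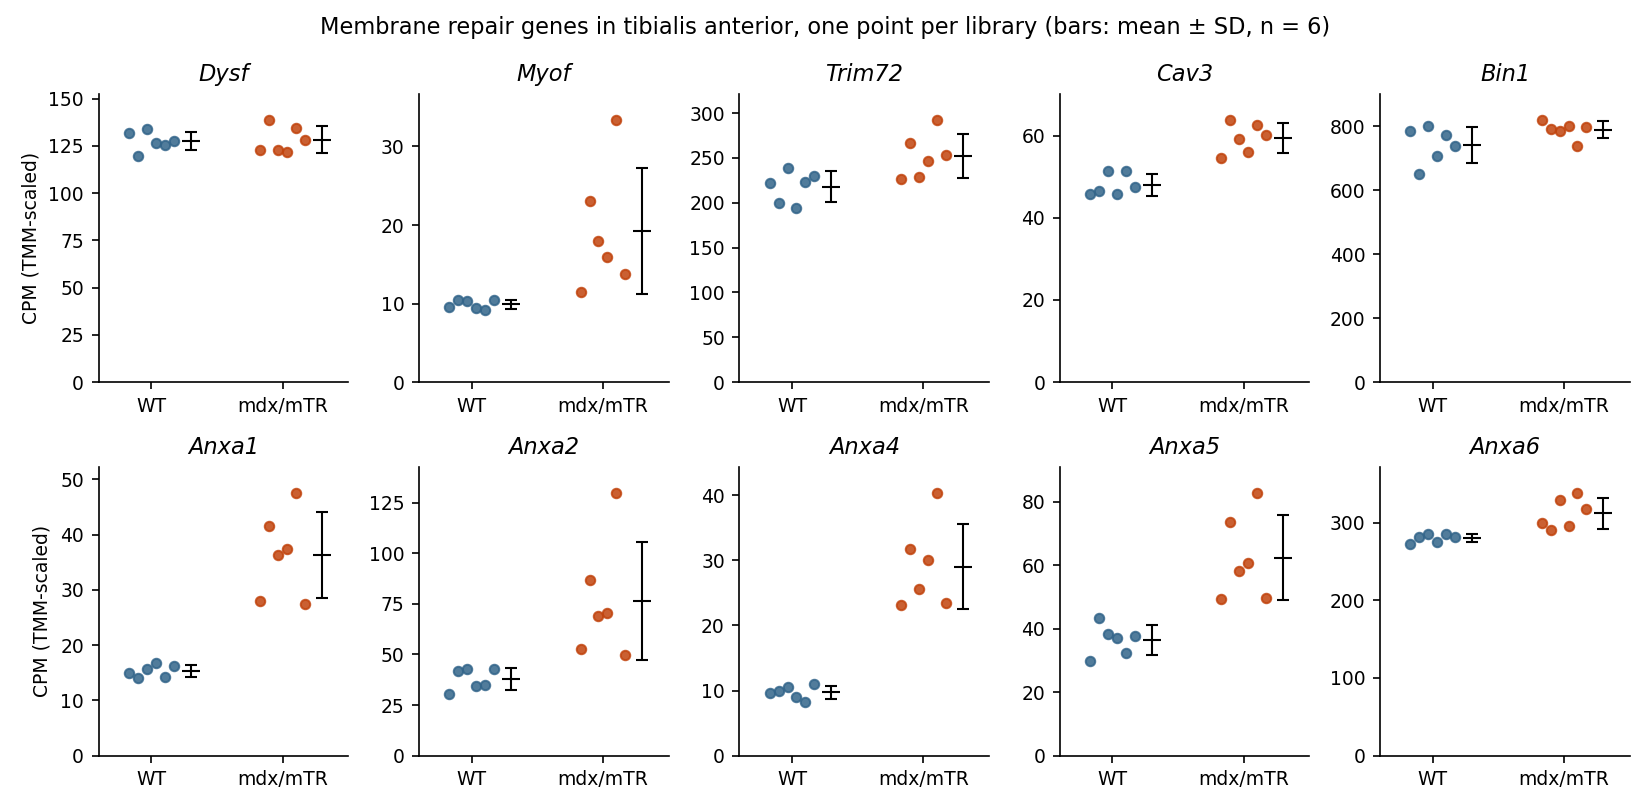
CPM of each of the 10 genes (vertical axes, from 0) in the 6 WT and 6 mdx/mTR libraries, one point per library with the mean and SD beside them. Myof, Cav3 and the 5 annexins show no overlap between groups, while the points of Dysf, Bin1 and Trim72 overlap.

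The ferlins are large proteins with several calcium-binding C2 domains, anchored in the membrane at one end, and Dysf and Myof are close relatives. Dysf, the ferlin of mature fibres, lies at chr6:84008590-84211060 (GRCm38, plus strand). Its WT libraries ranged from 119.9 to 134 CPM with a median of 127, and its mdx/mTR libraries from 122 to 139 CPM with a median of 126. The groups lay over each other, with 2 mdx/mTR libraries above the highest WT library and 0 below the lowest. The log2 fold change of Dysf was 0.01 ± 0.05 (SE, n = 6 per group; edgeR adjusted p = 0.905), with a 95% interval from -0.09 to 0.11. Its sign turned negative in DESeq2 (-0.00) and without WT replicate 2 (-0.01), mdx/mTR replicate 2 (-0.02) or mdx/mTR replicate 5 (-0.01). With library totals alone, Dysf was called higher (0.17, edgeR adjusted p = 0.0338).

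Myof (chr19:37899036-38043577, minus strand), known for its part in myoblast fusion and in membrane traffic of endothelial cells, was scarce in WT, at 9.22 to 10.5 CPM with a median of 9.93. In mdx/mTR it reached 11.5 to 33.4 CPM with a median of 16.9. Every mdx/mTR library was above every WT library, and the spread was far wider in mdx/mTR, with replicate 5 at 33.4 CPM and replicate 1 at 11.5 CPM. The log2 fold change was 0.96 ± 0.21 (SE; edgeR adjusted p = 0.0019), and 0.73 without mdx/mTR replicate 5.

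The balance of the 2 ferlins was examined as a ratio inside each library, which no library scaling can alter. Levels were divided by the longest coding transcript, 6803 bases for Dysf and 7094 bases for Myof. Myof stood at 0.0696 to 0.0833 of Dysf in WT (median 0.0726) and at 0.0895 to 0.238 of it in mdx/mTR (median 0.133). The groups did not overlap, and the log2 ratio rose by 0.86 (exact permutation test, two-sided, p = 0.00216, the smallest that 6 against 6 can give; adjusted p over the 3 ratios examined also 0.00216). By these lengths Dysf was the more abundant ferlin in all 12 libraries. The level of this ratio and of those below depends on the transcript length chosen, whereas the log2 difference between groups does not.

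**Figure D2:**
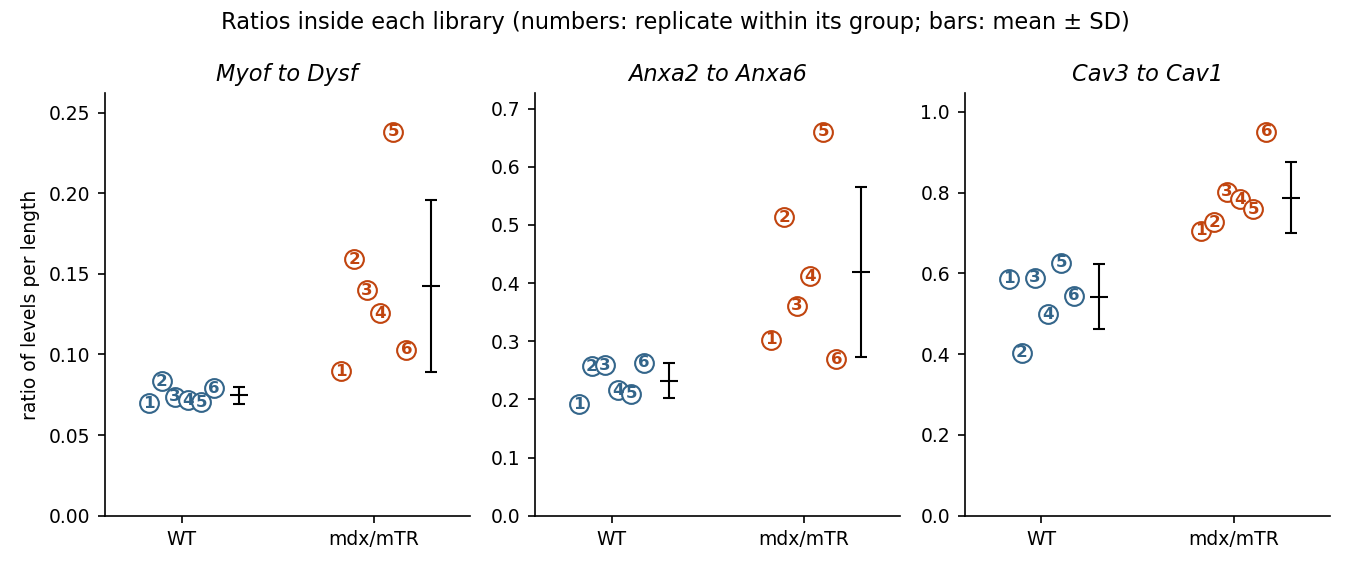
Ratios of levels per length in each library for Myof to Dysf, Anxa2 to Anxa6 and Cav3 to Cav1 (vertical axes from 0), with the replicate number in each circle and the mean and SD beside. In all 3 panels the lowest mdx/mTR library lies above the highest WT library.

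Trim72, a muscle ubiquitin ligase that tethers repair vesicles to injured membrane, lies at chr7:128003949-128011033 on the plus strand. It stood at 194 to 239 CPM in WT (median 223), and its mdx/mTR libraries held 227 to 293 CPM (median 250). The groups overlapped, with 4 of 6 mdx/mTR libraries above the highest WT library. Its log2 fold change was 0.21 ± 0.07 (SE; edgeR adjusted p = 0.0242). The call was lost without mdx/mTR replicate 5 (0.16, edgeR adjusted p = 0.0536), without WT replicate 2 (0.19, adjusted p = 0.0510) and without WT replicate 4 (0.18, adjusted p = 0.0585). A gene on the opposite strand, Gm15533, shares 20.2% of the 50-base stretches of the longest Trim72 transcript, and since strand handling is not given in the sources used here, reads of the pair cannot be told apart. The same limit applies to 7.93% of the stretches of Bin1 and 3.92% of those of Dysf.

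Cav3 (chr6:112459505-112472872, plus strand) encodes the muscle form of caveolin, the coat protein of the small membrane pits called caveolae. It stood at 45.7 to 51.5 CPM in WT (median 46.97), against 54.6 to 63.8 CPM (median 59.7) in mdx/mTR. Every mdx/mTR library was above every WT library, and the spread was narrow in both groups. The log2 fold change was 0.31 ± 0.05 (SE; edgeR adjusted p = 3.1e-04).

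Cav1, the caveolin of endothelial and many other cells, was set beside Cav3 because its protein coats the same kind of pit in non-muscle cells. Cav1 was at 185 to 274 CPM in WT and at 150.3 to 209 CPM in mdx/mTR, with overlap. Its log2 fold change was -0.25 ± 0.10 (SE), with an edgeR adjusted p of 0.0466, and 14 of 23 alternatives did not call it lower, among them the fits without WT replicate 2, 3, 4 or 6 or mdx/mTR replicate 1, 3, 4 or 6. Its sign turned when scaled to fibre markers (0.02). The ratio of Cav3 to Cav1, by their longest transcripts of 1157 and 2746 bases, was 0.404 to 0.626 in WT (median 0.565), against 0.705 to 0.950 in mdx/mTR (median 0.771). With the median Cav1 transcript of 613 bases the WT ratios would be 0.0902 to 0.140 and the mdx/mTR ratios 0.157 to 0.212. The groups did not overlap, with a log2 difference of 0.55 (exact permutation test, two-sided, p = 0.00216, adjusted p 0.00216). The sum of the 7 endothelial markers was 517 to 689 CPM in WT and 408 to 526 CPM in mdx/mTR. In WT, replicate 2 had the highest sum (689 CPM) and the lowest ratio (0.404), and replicate 5 the highest ratio (0.626) at 539 CPM. In mdx/mTR, replicate 1 had the lowest sum (408 CPM) and the lowest ratio (0.705), and replicate 6 the highest ratio (0.950) at 433 CPM. The part of endothelial RNA in the result was not tested.

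Bin1, an amphiphysin-like protein with a curved membrane-binding domain, is needed to form T-tubules. Its WT libraries ranged from 650.1 to 799 CPM (median 755) and its mdx/mTR libraries from 738 to 820 CPM (median 795), with the groups overlapping. The log2 fold change was 0.09 ± 0.06 (SE; edgeR adjusted p = 0.225), with a 95% interval from -0.04 to 0.22. With library totals alone it was called higher (0.24, edgeR adjusted p = 7.9e-04). The counts are per gene, so the muscle splice form of Bin1 was not separated from the others.

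Anxa1 (chr19:20373428-20390944, minus strand), also known as an anti-inflammatory protein of leukocytes, ranged from 14.1 to 16.8 CPM in WT (median 15.2). In mdx/mTR it ranged from 27.4 to 47.5 CPM (median 36.8), with every library above WT. The log2 fold change was 1.24 ± 0.12 (SE; edgeR adjusted p = 4.9e-06).

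Anxa2 (chr9:69453620-69491795, plus strand) works as a tetramer with S100a10 and joins membranes to actin. It was at 30.3 to 42.9 CPM in WT (median 38.4), and at 49.7 to 129.6 CPM in mdx/mTR (median 69.8). The groups did not overlap, and mdx/mTR replicate 5 was highest at 129.6 CPM while replicate 6 was lowest at 49.7 CPM. The log2 fold change was 1.01 ± 0.20 (SE; edgeR adjusted p = 9.9e-04), and 0.79 without mdx/mTR replicate 5.

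Anxa4 (chr6:86736840-86793584, minus strand), best known from epithelial cells, had the largest change of the 10 genes. It went from 8.23 to 10.97 CPM in WT (median 9.76) to 23.2 to 40.3 CPM in mdx/mTR (median 27.8), with a log2 fold change of 1.58 ± 0.13 (SE; edgeR adjusted p = 1.2e-06). Its groups were far apart, and a gene on the opposite strand, Gm44036, shares 1.46% of the stretches of its transcript. Anxa5 (chr3:36448923-36475894, minus strand) forms ordered sheets on exposed phosphatidylserine. Its WT libraries held 29.9 to 43.3 CPM (median 37.4) and its mdx/mTR libraries 49.2 to 82.6 CPM (median 59.3). Its groups did not overlap and its log2 fold change was 0.77 ± 0.13 (SE; edgeR adjusted p = 2.8e-04).

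Anxa6 (chr11:54979108-55033445, minus strand), the largest annexin, carries a doubled core and is abundant in muscle, where it is recruited to the repair cap. It was at 273 to 285 CPM in WT (median 281), against 291 to 338 CPM (median 309) in mdx/mTR. The groups did not overlap, although the rise was small, with a log2 fold change of 0.15 ± 0.05 (SE; edgeR adjusted p = 0.0158). The ratio of Anxa2 to Anxa6, by their longest transcripts, was 0.191 to 0.263 in WT (median 0.236) and 0.269 to 0.660 in mdx/mTR (median 0.386). The groups did not overlap, by a narrow margin between WT replicate 6 at 0.263 and mdx/mTR replicate 6 at 0.269. The log2 ratio rose by 0.79 (exact permutation test, two-sided, p = 0.00216, adjusted p 0.00216). With the median transcripts of both genes, the ratios would be 0.367 to 0.503 in WT and 0.515 to 1.26 in mdx/mTR. Anxa2 would then exceed Anxa6 in the highest mdx/mTR library.

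Promoters were read from the RefSeq table of GRCm38.p6, the build that mm10 denotes, in which 8 of the 10 genes had an entry, 10 entries in all. The 250 bases before each start were searched on both strands for the E-box CANNTG, the AP-1 site TGANTCA, the GC box GGGCGG, and the MEF2 and CArG boxes by name. Among all 32851 entries, 66.2% held an E-box, 6.75% an AP-1 site, 32.7% a GC box, 2.92% a MEF2 box and 1.47% a CArG box. The windows of Anxa2 and Cav3 are shown, because Anxa2 had the only AP-1 match of the 10 entries and Cav3 is the muscle gene with a non-overlapping rise. The first lies at chr9:69453433-69453619 and stops where annotated exon sequence begins, and the second lies at chr6:112459255-112459504. Both are on the plus strand, 5′ to 3′, with E-box and AP-1 matches in capitals.
Anxa2: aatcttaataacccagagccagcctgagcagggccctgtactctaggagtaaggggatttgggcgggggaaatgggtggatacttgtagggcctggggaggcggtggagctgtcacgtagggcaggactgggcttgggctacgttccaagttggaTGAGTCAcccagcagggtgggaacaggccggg
Cav3: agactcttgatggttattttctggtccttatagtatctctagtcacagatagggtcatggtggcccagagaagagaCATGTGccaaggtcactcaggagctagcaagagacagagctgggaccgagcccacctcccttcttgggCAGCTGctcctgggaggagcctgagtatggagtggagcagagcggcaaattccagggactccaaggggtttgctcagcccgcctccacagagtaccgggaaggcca
The AP-1 match of Anxa2 begins 95 bases before its RefSeq start, and the E-boxes of Cav3 begin 174 and 106 bases before its start. Anxa2 also held 3 GC boxes, some of them beyond the stretch shown. No MEF2 or CArG box was found in the 10 windows. These matches describe letters only, and no binding was measured.

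Within mdx/mTR, the libraries kept nearly the same order for Myof and for Anxa1, Anxa2, Anxa4 and Anxa5. Replicate 5 was highest and replicate 2 second for each of these 5 genes, and replicates 1 and 6 held the lowest places. The summed CPM of the 10 macrophage markers had the same extremes, with 781 in replicate 5 and 536 in replicate 2 against 284 in replicate 1 and 298 in replicate 6. In WT the sum was 97.9 to 167 CPM. The sum of the 8 satellite cell and myoblast markers was 32.9 to 44.6 CPM in WT and 114 to 512 CPM in mdx/mTR, with replicate 5 again highest. The sum of the 8 fibroblast markers was 1114 to 2119 CPM in WT and 2788 to 5725 CPM in mdx/mTR, also highest in replicate 5 but lowest in replicate 4. The sum of the 10 fibre markers had the reverse extremes in mdx/mTR. It was 151978 CPM in replicate 5 and 159311 in replicate 2, against 207750 in replicate 1 and 198134 in replicate 6. None of the macrophage, myoblast or fibroblast markers was at 0 in all libraries. Their part in the rises of Myof and the annexins, and that of fibre RNA, was not tested.

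The other 5 genes departed from that order. Trim72 had replicates 5 and 2 first but replicates 1 and 3 last, and Dysf and Cav3 were highest in replicate 2. Anxa6 was highest in replicate 5 but lowest in replicate 2, and Bin1 was lowest in replicate 5, at 738 CPM, and highest in replicate 1, at 820 CPM. Without WT replicate 2 and mdx/mTR replicate 5 together, 7 genes were called higher and Trim72 did not pass (0.14, edgeR adjusted p = 0.0955).

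**Figure D3:**
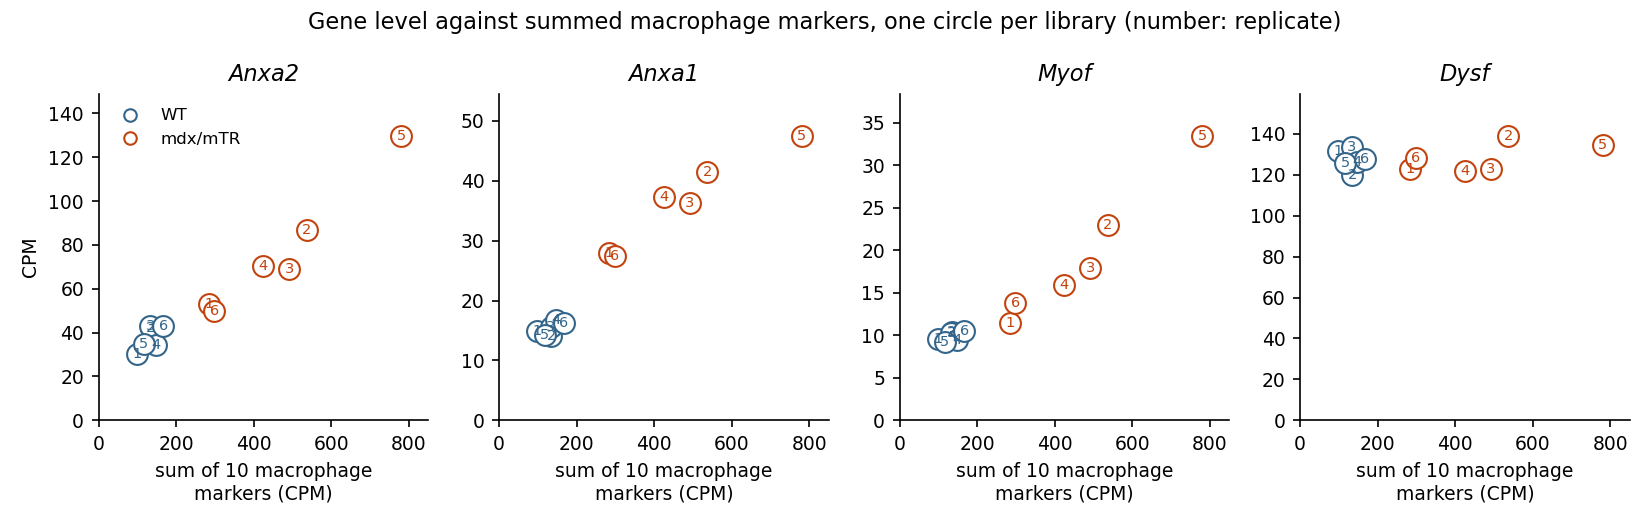
CPM of Anxa2, Anxa1, Myof and Dysf (vertical axes) against the summed CPM of 10 macrophage markers (horizontal axis), one circle per library with the replicate number inside. For Anxa2, Anxa1 and Myof the mdx/mTR libraries are spread along both axes with replicate 5 at the far end, while Dysf stays between 119.9 and 139 CPM throughout.

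Levels of different genes were set side by side as CPM per kilobase of the longest coding transcript. In WT, Bin1 was first at 308 ± 23.4 CPM per kilobase (SD, n = 6), followed by Anxa6 at 113 ± 2.13 and Trim72 at 102 ± 8.07, which overlapped each other. Cav3 came next at 41.5 ± 2.33, then Anxa2 (26.2 ± 3.72), Anxa5 (21.04 ± 2.72) and Dysf (18.7 ± 0.717), each of which overlapped its neighbour in this order. Anxa1 (9.15 ± 0.661), Anxa4 (4.79 ± 0.494) and Myof (1.40 ± 0.0797) closed the order, each apart from its neighbours by these lengths. In mdx/mTR, Anxa2 (52.8 ± 20.2) overlapped Cav3 (51.4 ± 3.12), and Anxa1 (21.7 ± 4.64) and Anxa4 (14.3 ± 3.21) both overlapped Dysf (18.8 ± 1.04). Myof remained last at 2.71 ± 1.12.

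The sum of the 5 annexins among the 10 genes was 174 ± 7.84 CPM per kilobase (SD, n = 6) in WT. It was 250.1 ± 38.9 in the 6 mdx/mTR libraries. Anxa6 made up 64.9% ± 2.31 of that sum in WT and 50.8% ± 6.41 in mdx/mTR. Anxa2 went from 15.02% ± 1.49 to 20.6% ± 4.41, Anxa1 from 5.27% ± 0.429 to 8.62% ± 0.816 and Anxa4 from 2.76% ± 0.232 to 5.68% ± 0.495. Anxa5 held 12.1% ± 1.14 in WT and 14.3% ± 1.24 in mdx/mTR. These orders and shares rest on the longest transcript. With the median coding transcript, Anxa2 would stand at 50.4 CPM per kilobase in WT, above Cav3 at 41.5, and at 102 in mdx/mTR. Anxa4 would stand at 9.92 in WT, above Anxa1 at 9.29, and at 29.6 in mdx/mTR, above Anxa1 at 22.04 and Dysf at 19.5.

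All 10 estimates were positive under TMM, but the scaling set how many passed. With library totals alone, the median over all genes moved up by 0.16 (log2), and all 10 genes were called higher, beside 5596 genes higher and 1560 lower in all. Scaling to the 10 fibre marker genes was a choice made after seeing the data that takes fibre RNA as the reference. Under TMM, 2 of these 10 markers were themselves called higher and 3 lower. With this scaling the shift was 0.26 and again all 10 membrane repair genes were called higher, beside 6481 genes higher and 771 lower of the 13937. Dysf was then at 0.28 and Anxa4 at 1.87. Under TMM the 2 genes left out were Dysf and Bin1.

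**Figure D4:**
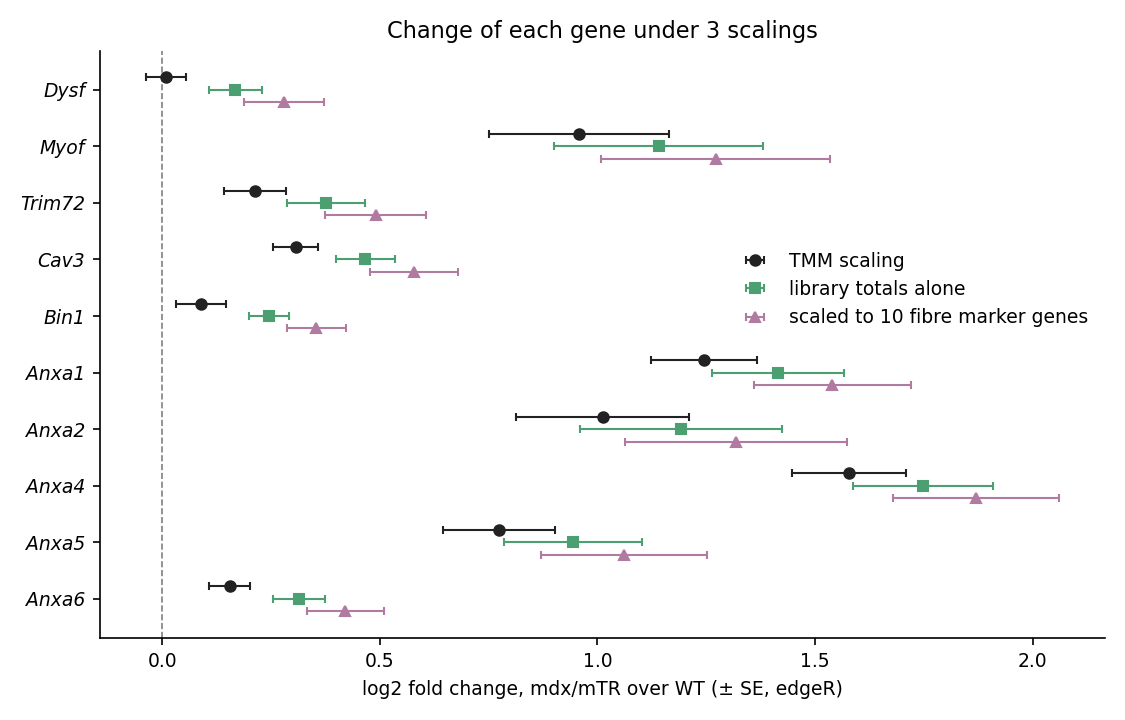
Change from WT to mdx/mTR on the log2 scale (horizontal axis, ± SE from edgeR) for the 10 genes under TMM scaling, library totals alone and scaling to 10 fibre marker genes. Each gene shifts to the right by a similar step from one scaling to the next, and the order of the genes is nearly kept.

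Further genes of membrane repair were taken from 8 lists with 74 genes, of which 67 were tested. Of these, 27 were higher and 18 lower, that is 67.2% called against 48.3% of all genes, and their median log2 fold change was 0.04. Each list below is to be read against the 25.0% higher and 23.4% lower of all genes. The split depended on the scaling, with 10 lower under library totals alone, and 41 higher and 6 lower when scaled to fibre markers. Over all alternatives the caveolar genes called lower numbered 0 to 6, the T-tubule and EHD genes 4 to 7, and 6 S100 genes were called higher in each. Among the other annexins, 4 of 5 tested genes were higher and 0 lower, led by Anxa7, which went from 53.3 ± 4.12 to 94.3 ± 12.7 CPM (SD, n = 6 each; log2 fold change 0.82), and Anxa8 (1.16), which stayed below 2 CPM. Anxa3 did not pass (-0.22, edgeR adjusted p = 0.0526), but 7 of 23 alternatives called it lower, among them DESeq2 (-0.23) and the fits without mdx/mTR replicate 5 (-0.28), WT replicate 1 (-0.25) or WT replicate 5 (-0.26). Its sign turned when scaled to fibre markers (0.06). At an adjusted p below 0.01, 2 of the other annexins were higher. Of the other ferlins, only Fer1l5 was tested, and it was lower (-0.40, edgeR adjusted p = 0.0055), a call lost when scaled to fibre markers (-0.15).

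The S100 proteins are small calcium sensors, several of which pair with annexins, and 6 of 7 were higher and 0 lower. S100a4 went from 4.65 ± 1.33 to 24.5 ± 13.4 CPM (SD, n = 6 each; log2 fold change 2.40) and S100a13 from 7.37 ± 0.550 to 13.6 ± 2.11 CPM (0.88). S100a10, the partner of Anxa2, went from a range of 11.4 to 16.1 CPM to one of 17.1 to 40.6 CPM (0.84, edgeR adjusted p = 0.0015). Among calpains and dysferlin partners, 7 of 11 tested genes were higher and 2 lower. Capns1, the small calpain subunit, rose by 0.37, and Ahnak, a giant scaffold that binds dysferlin, rose by 0.53. The lower genes were Capn3, the muscle calpain (-0.31), and Fam65b (-0.74), neither of which passed when scaled to fibre markers (-0.06 and -0.46).

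Of the 9 caveolar genes, 2 were higher and 3 lower. The lower genes were Cav1, Cav2 (-0.34) and Sdpr (-0.43), the symbol used for a cavin gene of endothelial and fat cells. None of these passed when scaled to fibre markers, and Cav1 (-0.09) and Cav2 (-0.18) also did not pass with library totals alone. The higher genes were Murc, the muscle cavin (0.23), whose call was lost without WT replicate 4 or WT replicate 6, and Prkcdbp (0.53). Ptrf, the cavin needed for all caveolae, did not pass (0.08, edgeR adjusted p = 0.379), but was called higher with library totals alone and when scaled to fibre markers. Of 11 T-tubule and EHD genes, 1 was higher, Ehd3 (0.60), and 6 were lower. Among the lower genes, Mtm1, the lipid phosphatase of T-tubule formation, was at -0.27, Jph1 at -0.54 and Ryr1 at -0.52. Mtm1 was not called with library totals alone (-0.12) or when scaled to fibre markers (-0.01).

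Of the vesicle fusion genes, 4 of 11 tested were higher and 3 lower, near the shares of all genes, and the count of higher genes ran from 3 to 7 over the alternatives. Rab27b went from 1.23 ± 0.610 to 5.48 ± 0.745 CPM (SD, n = 6 each; log2 fold change 2.15). Syt7, a calcium sensor of lysosome fusion, went from 5.90 ± 0.499 to 3.48 ± 0.441 CPM (-0.77). Of the 12 ESCRT genes, whose products cut off damaged membrane, 3 were higher and 3 lower, about the shares of all genes. Pdcd6, the calcium-binding protein that recruits them, rose by 0.30 and Chmp3 by 0.18.

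**Figure D5:**
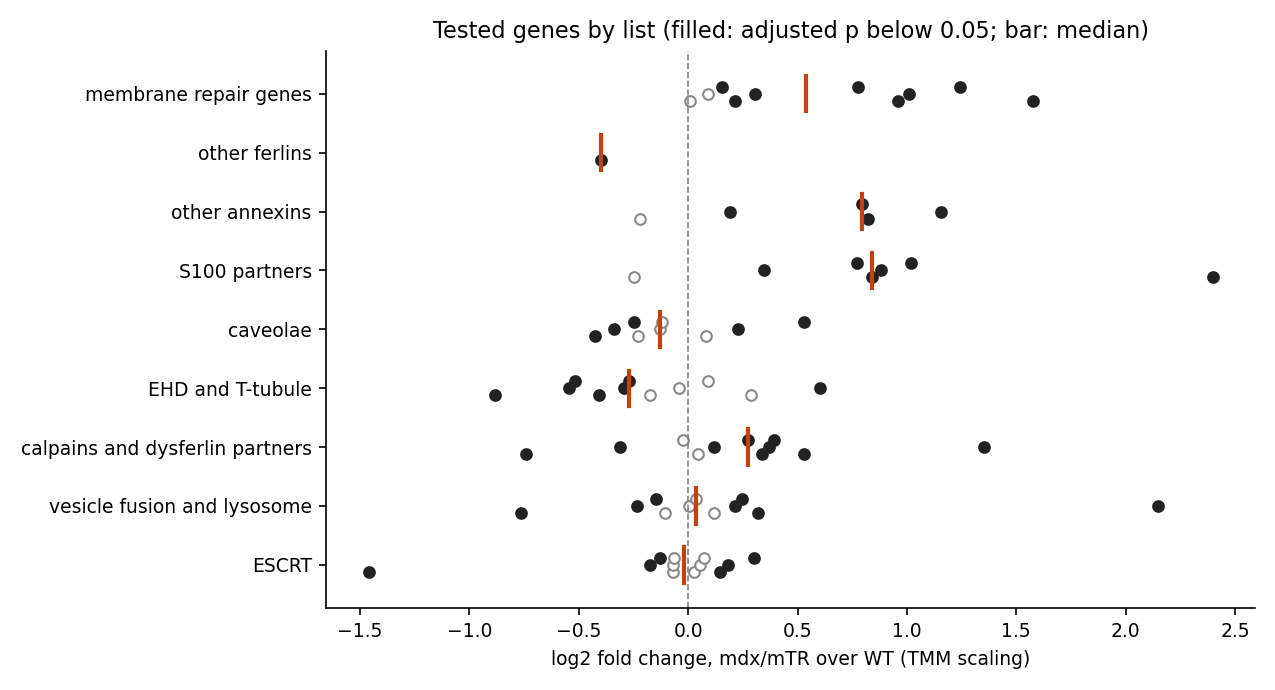
Change from WT to mdx/mTR on the log2 scale (horizontal axis) for the tested genes of each list, filled where the adjusted p was below 0.05, with the median of each list as a bar. The S100 partners and the other annexins lie mostly to the right of 0, the T-tubule and EHD genes mostly to the left.

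The genes whose library-to-library deviations were most like each of the 10 were found by Pearson correlation of deviations from the group means, over 12 libraries and 9508 genes with a mean of at least 5 CPM. With so many genes compared, high values arise among the closest genes by selection, and all share the libraries and their depth, so these are descriptions with no test. The 2 groups were pooled, and r within a group can differ. For Anxa1 and Anxa2, r was 0.86 over the 12 libraries, 0.10 within WT and 0.97 within mdx/mTR. For Myof and Anxa2, these values were 0.93, 0.86 and 0.97. Anxa2 was closest to S100a6 (r = 0.98), Adgre1 (0.97) and Fyb (0.96), and Anxa1 to Apoe (0.96), C1qa (0.95) and Cd68 (0.95). Anxa5 was closest to Cd81 (0.98), Vim (0.97) and Man2b1 (0.97), Anxa4 to Metrnl (0.98), Nelfb (0.96) and Bin3 (0.94), and Myof to Dpy19l1 (0.98), Cfl1 (0.97) and Mapk7 (0.97).

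Anxa6 was closest to Clcn6 (0.98), Dnm3 (0.90) and Btbd7 (0.89). Bin1 was closest to Ube2k (0.95), Rnf187 (0.95) and Ran (0.94), and Cav3 to Nln (0.92), Arfip2 (0.91) and Mad2l1bp (0.89). Dysf and Trim72 had Prpf38a in common (0.85 and 0.93), beside Helb (0.85) and Myl6 (0.84) for Dysf and Zfp865 (0.93) and H2afj (0.92) for Trim72. Between the 10 genes themselves, the deviations of Myof and Anxa2 had r = 0.93, those of Dysf and Trim72 0.77, and those of Dysf and Anxa6 0.00.

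In the authors' deposited table, 8 of the 10 genes have an adjusted p below 0.05, namely the same 8 that were called here. Changes on the log2 scale in the authors' deposited table are -0.00 for Dysf, 0.88 for Myof, 0.30 for Cav3 and 1.52 for Anxa4.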

How the data were processed

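The authors deposited whole-number counts per gene symbol, 1 column per sample, with 0 per-sample columns left unmatched. The submitters' processing notes list FastQC, STAR, DESeq2 and mm10. Counting, annotation and strand handling are not given in the sources used here. The authors' deposited comparison table gives each gene a signal (its mean normalized count), a log2 fold change and error, a score (the test statistic) and p-values.

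Counts were tested with edgeR 4.0.16 in R 4.3.3: filterByExpr (13937 genes, 99.97% of counts), TMM, group as the only term, glmQLFit and glmQLFTest, Benjamini-Hochberg adjustment and a threshold of 0.05. The SE is the log2 fold change divided by the square root of F; 95% intervals use the t quantile for 10 degrees of freedom. The fits were run on simulated data in which 200 of 13937 genes were changed. There edgeR recovered 64% of changes of log2 0.5 and 92% of changes of log2 1, with 3 false calls, against 34 for DESeq2 and 4 for limma-voom. The simulation does not cover data in which 48.3% of genes are called, as here. Ratios were tested with exact permutation over 924 splits in scipy 1.17.1. Deviations used log2(CPM + 0.5). Transcript lengths, shared 50-base stretches and overlapping genes came from GENCODE M21 (GRCm38). A floor of 3 counts corresponds to 0.0460 to 0.0837 CPM and covers counting error only. Replicate pairs differed beyond sampling noise (chi-square per degree of freedom 9.29 to 122). The rule named all 10 genes, the 2 smallest p-values of each list and, for each of the 10, the 3 most alike. S100a10, Anxa3, Anxa11, Capn3, Fam65b, Murc, Prkcdbp, Ptrf, Jph1 and Ryr1 were named after their values were seen. The genes and lists were chosen with earlier results of these data known. Alternatives were other scalings and filters, DESeq2 1.42.0, limma-voom 3.58.1, a replicate block, a stricter threshold and leaving out samples; protein sequences were not used here.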

Additional observations from a re-analysis of the deposited data

Results flagged for a closer look

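A library was marked where its distance from the next value, as a share of its group's range, exceeded Dixon's 95% critical value for 6 samples. This held for 10 of 80 sets of 6 values, where chance gives about 1 in 20, or 4. None was a value of the 10 membrane repair genes or of the 3 ratios. Cav1, by which Cav3 was divided, was not among the sets. Cav1 was at 273.6 CPM in WT replicate 2 against 185 to 218 CPM in the other WT libraries, a value the same rule would mark. That replicate had the lowest Cav3 to Cav1 ratio (0.404). In mdx/mTR replicate 5, S100a4 was 50.2 CPM against 14.2 to 27.2 in the others, the neutrophil marker sum was 18.6 CPM against 1.87 to 3.801, and the sum of satellite cell and myoblast markers was 512 CPM against 114 to 254. In mdx/mTR replicate 3, Syt7 was highest at 4.35 CPM against 3.18 to 3.47, and Chmp3 was lowest at 48.1 CPM against 51.1 to 52.4. Ehd3 was 13.6 CPM in mdx/mTR replicate 1 against 9.16 to 10.8, and the red cell marker sum was 22.3 CPM in mdx/mTR replicate 4 against 9.82 to 14.4. That sum is Alas2 alone, because Hba-a1, Hba-a2, Hbb-bs and Hbb-bt had no counts in any library. In WT, Fer1l5 was 9.29 CPM in replicate 4 against 6.72 to 7.47, Anxa8 was 1.5003 CPM in replicate 1 against 0.472 to 0.784, and S100a4 was 7.14 CPM in replicate 6 against 3.33 to 4.72.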

How the results depend on the processing

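Of the 10 genes, 6 to 10 were called higher and 0 lower under the 23 alternatives run, and Myof, Cav3, Anxa1, Anxa2, Anxa4 and Anxa5 were called under each. Dysf changed sign in DESeq2 (-0.00225), without mdx/mTR replicate 2 (-0.0165), mdx/mTR replicate 5 (-0.00998) or WT replicate 2 (-0.0110), and without WT replicate 2 and mdx/mTR replicate 5 together (-0.0279), and ranged from -0.0165 to 0.0221 over the fits without 1 sample. It passed with library totals alone (0.167) and scaled to fibre marker genes (0.280), as did Bin1 (0.245 and 0.354). Trim72 did not pass without WT replicate 2 and mdx/mTR replicate 5 together (0.138), and ranged from 0.162 to 0.241 over the fits that left out 1 sample. At an adjusted p below 0.01, Trim72 (0.212) and Anxa6 (0.155) did not pass. Related genes called lower numbered 10 with library totals alone and 6 scaled to fibre marker genes, which called 41 higher. The causes of these changes were not tested.

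The groups share replicate numbers. Deviations of same-numbered libraries had correlations from -0.155 to 0.354, with 2 of 6 above 0.1, which does not make them pairs. Fitting the replicate block called 6420 genes in place of 6736. The block left the calls of the 10 genes as they were, and paired sign flips gave each ratio an exact adjusted p of 0.0313, the smallest possible.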
